A study of Mus musculus with 2040 samples.

Results

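Agt encodes angiotensinogen, the protein from which all angiotensin peptides are cut. It was 1 of the 32245 gene columns of a single-cell expression table of mouse brain cells, and its level was described in the 966 astrocyte-like cells among 2040 cells. Renin cuts angiotensinogen to angiotensin I, angiotensin-converting enzyme (Ace) makes angiotensin II from it, and angiotensin II acts through the receptors Agtr1a, Agtr1b and Agtr2. The liver is the main source of the circulating protein. Within the brain, astrocytes are the cells best known to make it, and brain regions are known to differ in how much they hold.

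The study sorted single brain cells that expressed the fluorescent protein SYFP2 from an adeno-associated virus (AAV) vector, with an enhancer or promoter named for each vector, and sequenced their polyA RNA with SMARTerv4. All mice were C57Bl/6J. Cells were taken from VISp (the primary visual area of the cortex), CBX (cerebellar cortex) or MB/HB (midbrain and hindbrain). Of 47 mice, 25 gave astrocyte-like cells, with 12 to 46 in each, and the other 22 gave 0.

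VISp gave 739 astrocyte-like cells from 19 mice and 12 vectors. These were eHGT_373m, eHGT_374m, eHGT_376h, eHGT_380h, eHGT_385m, eHGT_386m, eHGT_387m, eHGT_390h, eHGT_390m, 3xCore2(390m), ProB12 and GFAP_promoter, the last a vector named for the promoter of an astrocyte gene. CBX gave 81 cells from 2 mice with eHGT_375m, and MB/HB gave 146 cells from 4 mice, 2 with eHGT_381h and 2 with MGT_E160m. Among these mice each vector was used in 1 tissue, so tissue and vector cannot be told apart. Every cell came from a mouse given a vector and was sorted for SYFP2, so no comparison with uninjected mice or unsorted cells was possible. The labels give neither the age of the mice nor the time after injection.

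The class of a cell was taken from clusters of similar cells named by marker genes, with Agt left out of the clustering. The median astrocyte-like cell had a read of all 12 astrocyte markers in each of the 3 tissues. The least detected marker was Aldh1l1 in VISp (85.1% of cells) and in MB/HB (67.8%), and Fgfr3 in CBX (76.5%). Depth was 57873 to 1455022 reads per cell, with a median of 434101.5. A cell was taken to hold RNA of another class where more than 50% of another class's markers had a read. This was found in 3.52% of VISp, 2.47% of CBX and 8.90% of MB/HB astrocyte-like cells.

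In the GENCODE M21 annotation of GRCm38, the assembly also named mm10, Agt lies on the minus strand at chr8:124556534-124569706. Its single transcript is protein-coding, with 5 exons and 1891 bases. No annotated gene overlapped it. The nearest neighbours were Cog2, 4526 bases from its 3′ end, and Capn9, 6405 bases from its 5′ end, both on the opposite strand. Within 100000 bases the only gene among the columns used was 2310022B05Rik, at 6.24 in VISp, 5.88 in CBX and 6.44 in MB/HB on the log2 scale used for Agt. Its difference between MB/HB and VISp was 0.21 (limma adjusted p = 0.651).

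The 250 bases before the RefSeq start of Agt are shown as the sequence from which the described transcript starts. They lie at chr8:124569707-124569956 on GRCm38 and are printed 5′ to 3′ along the minus strand. Capitals mark the motifs found in a search of both strands.
Agt promoter: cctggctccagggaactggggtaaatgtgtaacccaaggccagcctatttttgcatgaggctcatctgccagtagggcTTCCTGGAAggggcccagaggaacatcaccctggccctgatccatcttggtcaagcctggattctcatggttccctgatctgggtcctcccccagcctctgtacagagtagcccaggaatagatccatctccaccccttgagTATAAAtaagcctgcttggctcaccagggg
The search covered TATAAA (the TATA box), TTCNNNGAA (a site of the STAT factors), TGTTCT (a half-site of steroid hormone receptors) and TGCCAA (a half-site of NFI factors), where N is any base. TATAAA was found once, starting 30 bases before the start, and TTCNNNGAA once, starting 172 bases before it. The motifs do not overlap. Of 27025 RefSeq promoters of the same length, 12.97% held TATAAA and 7.18% held TTCNNNGAA. The letters of TGTTCT and TGCCAA, held by 16.2% and 12.5% of promoters, were not in this window. These matches describe letters only, and no binding or accessibility was measured here.

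The level of Agt in astrocytes was lowest in VISp, higher in CBX and highest in MB/HB. Levels are in CPM, reads of a gene scaled to a sum of 1000000 per cell. The mean over the cells of a mouse was 56.95 CPM in the lowest, 124 in the median and 231 in the highest VISp mouse. The CBX mice had 349 and 472 CPM. The MB/HB mice had 1946, 2552, 2697 and 3046 CPM. Every CBX mouse was above every VISp mouse, and every MB/HB mouse above every CBX mouse. Over all genes tested, 22.6% had CBX and VISp mice that did not overlap, and 5.45% had MB/HB and VISp mice that did not overlap. This share was not computed for MB/HB against CBX.

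On the scale log2(mean CPM + 1), VISp mice were at 6.96 ± 0.50 (SD, n = 19), CBX mice at 8.67 ± 0.31 (SD, n = 2) and MB/HB mice at 11.30 ± 0.27 (SD, n = 4). MB/HB was higher than VISp by 4.34 (SE 0.24, limma adjusted p = 1.29e-14), a 20.3-fold difference. Of 5360 genes tested, 20.1% were called in that comparison at an adjusted p under 0.05, and 19 of them had a larger positive difference than Agt. The genes tested were the fixed lists plus the most widely detected genes, and genes outside these were not ranked. CBX was higher than VISp by 1.70 (SE 0.32, limma adjusted p = 0.000181), or 3.26-fold, where 22.9% of genes were called. MB/HB was higher than CBX by 2.63 (SE 0.38, limma adjusted p = 4.85e-06), or 6.21-fold, where 20.3% of genes were called. The 3 comparisons share mice. As the mean over cells of log2(CPM + 1), the differences were 7.28, 4.35 and 2.93. From the median CPM over cells they were 10.18, 7.56 and 2.62, the last with a limma adjusted p = 0.186. The median VISp cell was at 0 CPM, with 443 of 739 cells without a read. On these scales the differences from VISp thus depend on the 1 CPM added before the log and are not fold differences.

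An exact two-sided permutation test over mice gave p = 0.000113 for MB/HB against VISp, 0.00476 for CBX against VISp and 0.0667 for MB/HB against CBX. Each is the smallest p its number of mice allows, so the last cannot fall below 0.05. Adjusted over the 3 comparisons, these exact p-values were 0.000339, 0.00714 and 0.0667. The p-values measure the spread between mice.

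**Figure D1:**
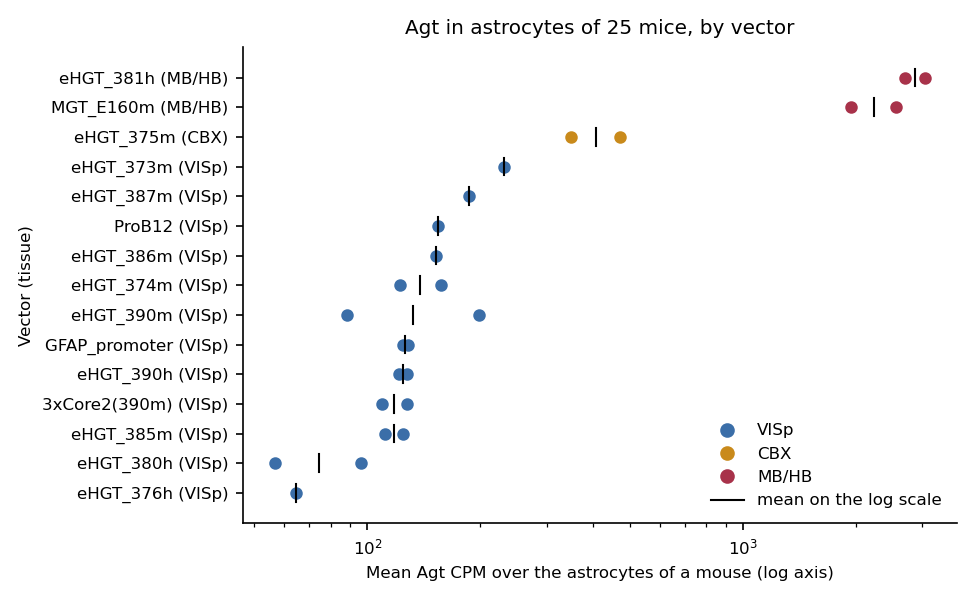
Mean Agt CPM over the astrocytes of each mouse (log axis), by vector, with 1 point per mouse, coloured by tissue, and a line at the mean of the mice of a vector on the log scale. The 19 VISp mice lie between 56.95 and 231 CPM, the 2 CBX mice at 349 and 472, and the 4 MB/HB mice between 1946 and 3046.

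RNA of oligodendrocytes, the myelin-forming cells, was measured in the same astrocytes. Their 12 markers summed to 171 to 1311 CPM in VISp mice, 1935 and 2224 CPM in CBX mice and 839 to 6262 CPM in MB/HB mice. In CBX almost all of the sum was Cnp, a myelin enzyme gene, at 1782 and 2018 CPM. Without Cnp, the other 11 markers summed to 6.98 to 1079 CPM in VISp mice, 153 and 206 CPM in CBX mice and 645 to 5956 CPM in MB/HB mice, so CBX lay within VISp and MB/HB overlapped VISp. Of the 11 oligodendrocyte markers tested, MB/HB had 4 called higher and 0 called lower than VISp, where 8.96% of all genes were called higher and 11.1% lower. Oligodendrocyte-like cells themselves had a mean Agt of 1.03 CPM over 933 cells in VISp and of 8.85 CPM over only 10 cells in MB/HB. Without the cells that held RNA of another class, Agt was higher in MB/HB than in VISp by 4.41 (limma adjusted p = 1.35e-14). This left out only cells with a read of more than 50% of another class's markers. The MB/HB mice with 0% of such cells still held 1092 and 839 CPM of the oligodendrocyte markers. The part of this RNA in the Agt level was not tested.

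The 12 neuron markers summed to 22.4 to 556 CPM in VISp mice, 118 and 276 CPM in CBX mice and 14.5 to 974 CPM in MB/HB mice, so their ranges overlapped. Within MB/HB, the mouse with the most RNA of both classes was the MGT_E160m mouse with 36 astrocytes, which also had the lowest Agt of the 4. In it, 33.3% of the astrocytes held RNA of another class, against 0%, 0% and 3.33% in the others.

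In single VISp astrocytes Agt was either not detected or present at a clear level. No read was found in 443 of the 739 cells, so the median VISp cell was at 0. The 296 cells with a read had a median of 266 CPM and a median of 108 Agt reads, and only 27 of them were below 64 CPM. Measured low levels above 0 were thus rare. Reads carried no molecular identifiers, and whether the cells at 0 lacked Agt RNA was not tested. The highest VISp cell had 1789 CPM.

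In CBX 73 of 81 cells had a read, and in MB/HB 141 of 146. The cells with a read had a median of 396 CPM in CBX and 2280 CPM in MB/HB. No MB/HB cell with a read was below 64 CPM. The upper ends of the distributions differed between the tissues. Levels above 1000 CPM were found in 9 VISp cells, 5 CBX cells and 105 MB/HB cells, or 1.22%, 6.17% and 71.9%. The highest MB/HB cell had 11499 CPM.

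**Figure D2:**
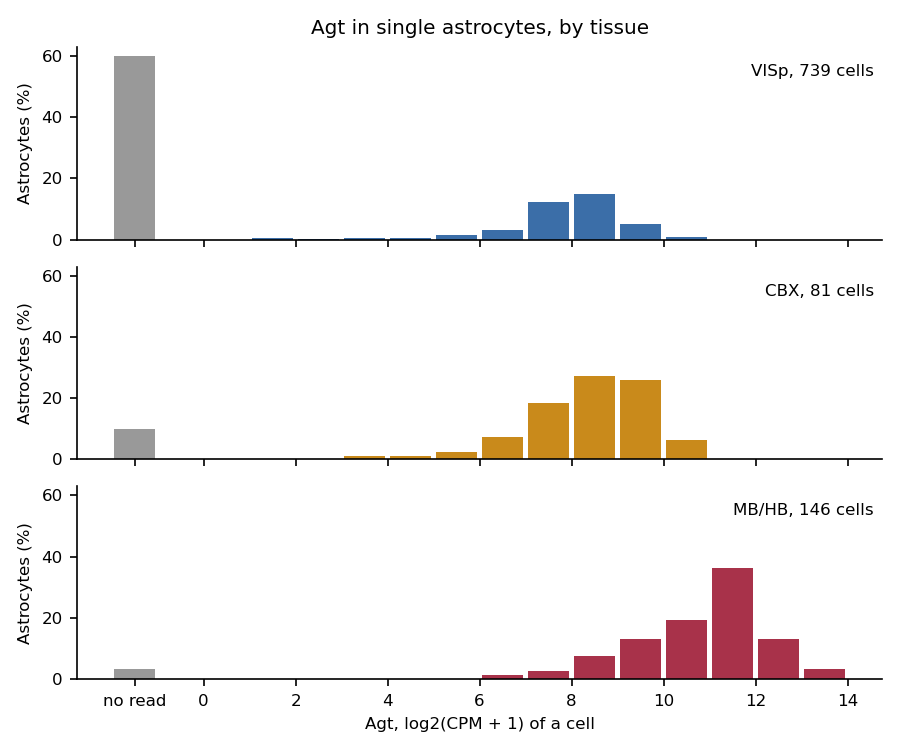
Share of astrocytes (y axis, percent of the cells of a tissue) by Agt level, log2(CPM + 1), in steps of 1 (x axis), with the cells without a read as a grey bar. In VISp 443 of 739 cells are in the grey bar and the rest centre near 8, while the MB/HB cells centre near 11.

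The share of astrocytes with an Agt read was 40.2% ± 8.3 (SD, n = 19) over VISp mice, 89.8% ± 7.9 (SD, n = 2) over CBX mice and 96.2% ± 4.4 (SD, n = 4) over MB/HB mice. It was 20.6% in the lowest, 39.5% in the median and 52.2% in the highest VISp mouse. The CBX mice had 84.2% and 95.3%, and the MB/HB mice 91.7%, 93.3%, 100% and 100%. Both other tissues lay above all VISp mice, and CBX and MB/HB overlapped.

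Thinned to 50000 reads per cell, the shares were 38.6% ± 8.7, 88.6% ± 6.2 and 96.2% ± 4.4. The exact two-sided permutation p over mice was 0.000113 for MB/HB against VISp, 0.00476 for CBX against VISp and 0.2 for MB/HB against CBX (adjusted over these 3, 0.000339, 0.00714 and 0.2). Counted over all cells, the shares had exact 95% binomial intervals of 36.5 to 43.7% in VISp, 81.5 to 95.6% in CBX and 92.2 to 98.9% in MB/HB. These intervals cover counting error only.

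The cells with a read also differed in level. The log2 of their median CPM was 7.99 ± 0.19 (SD, n = 19) for VISp mice, 8.74 ± 0.21 (SD, n = 2) for CBX mice and 11.11 ± 0.14 (SD, n = 4) for MB/HB mice, and the 3 tissues did not overlap. The differences from VISp were 3.12 for MB/HB (exact permutation p = 0.000113) and 0.75 for CBX (exact permutation p = 0.00476). The difference between MB/HB and CBX was 2.37 (exact permutation p = 0.0667, the smallest possible). The share of all genes without overlap was not computed for this level. CBX astrocytes thus lay nearer to MB/HB in the share of cells with a read and nearer to VISp in the level of those cells.

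**Figure D3:**
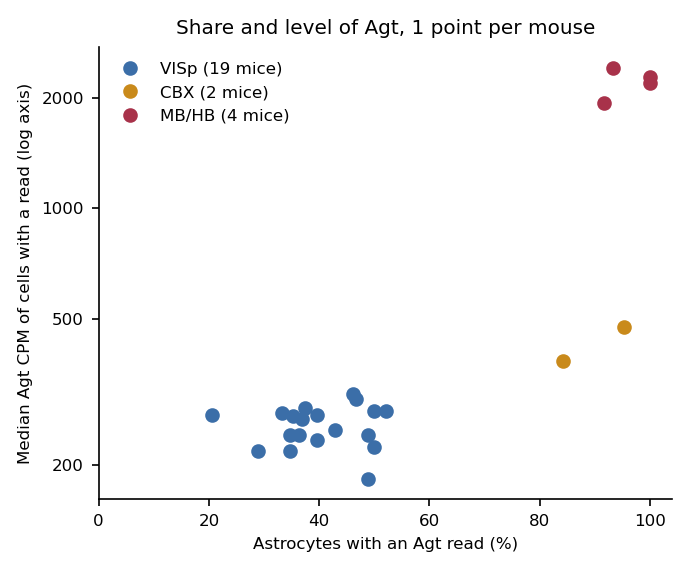
Share of astrocytes with an Agt read (x axis, percent) against the median Agt CPM of the cells with a read (y axis, log axis), with 1 point per mouse coloured by tissue. The VISp mice lie between 20.6% and 52.2% and between 183 and 311 CPM, the CBX mice at 84.2% and 95.3% and 384 and 474 CPM, and the MB/HB mice at 91.7% or more and between 1938 and 2425 CPM.

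On the log2(CPM + 1) scale, cells of a mouse varied most in VISp. The SD of log2(CPM + 1) over the cells of a mouse averaged 3.93 ± 0.28 (SD, n = 19) over VISp mice, 2.79 ± 0.70 (SD, n = 2) over CBX mice and 2.32 ± 0.999 (SD, n = 4) over MB/HB mice. It was lower in MB/HB (exact permutation p = 0.000113) and in CBX (exact permutation p = 0.00476) than in VISp, by 1.61 and 1.14. These sizes depended on the pseudocount. With log2(CPM + 10) the differences were -0.47 and -0.43 (exact permutation p = 0.0131 and 0.0143, adjusted 0.0214 for both), and both tissues overlapped VISp. Among cells with a read only, the SD of log2 CPM was 1.44, 1.40 and 1.41, and MB/HB differed from VISp by -0.03 (exact permutation p = 0.93).

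VISp cells with and without an Agt read had similar depth. Cells with a read had a median of 428216 reads and 4360 detected genes, and cells without one 436802 reads and 4298 genes. Over the 19 VISp mice, the Agt level had a Pearson r of -0.28 with median reads (permutation p = 0.251) and a Spearman rho of -0.30 (permutation p = 0.214). With median genes detected the r was 0.21 (permutation p = 0.389) and rho 0.09 (permutation p = 0.705). Without the 2 mice farthest from the median, the r values were -0.24 and 0.12. The p-values of r adjusted over these 2 relations were 0.389 for both, and those of rho 0.429 and 0.705.

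The library names in the labels start with AB or SM. The 16 VISp mice with AB names had 6.89 ± 0.48 (SD) and the 3 with SM names 7.38 ± 0.39 (SD) on the log2 scale, and all CBX and MB/HB mice had AB names. Library names AB-S40318 and AB-S40319 held cells of all 3 tissues. Only mice with at least 10 astrocytes under these names were compared. For MB/HB this left the eHGT_381h mouse with 30 astrocytes, and for CBX the eHGT_375m mouse with 38. The MGT_E160m mice had 6 and 5 astrocytes there, at 3003 and 951 CPM, and were left out. Among the mice kept, MB/HB was higher than VISp by 4.67, CBX higher than VISp by 1.55 and MB/HB higher than CBX by 3.12. The spread between mice within MB/HB or CBX cannot be seen there.

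The name AB-S40304 also held cells of all 3 tissues, with 3 VISp mice and 1 mouse of each other tissue. The VISp mice there had 0, 124 and 157 CPM, the CBX mouse 530 CPM and the MB/HB mouse 4202 CPM. The order of the tissues was thus the same, but no difference passed the test. MB/HB minus VISp was 7.28 (limma adjusted p = 0.318), CBX minus VISp 4.29 (limma adjusted p = 0.634) and MB/HB minus CBX 2.99 (limma adjusted p = 0.767). The mouse at 0 had received eHGT_380h, and 0 of its 16 cells with that name had an Agt read, which allows a share of up to 18.8%. Of its 18 other astrocytes, named AB-S40303, 7 had one (38.9%, exact 95% interval 17.3 to 64.3%). Median depth was 351995 and 534554 reads, and Aqp4, an astrocyte water channel gene, was detected in 87.5% and 94.4% of these cells.

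Among VISp vectors, the order of Agt levels on the log2 scale ran from eHGT_373m (7.86, 1 mouse) over eHGT_387m (7.55, 1 mouse), ProB12 (7.28, 1 mouse), eHGT_386m (7.26, 1 mouse) and eHGT_374m (7.12 ± 0.25, SD, n = 2) to eHGT_390m (7.06 ± 0.82, SD, n = 2). Below these came GFAP_promoter (6.99 ± 0.03), eHGT_390h (6.97 ± 0.05), 3xCore2(390m) (6.90 ± 0.15), eHGT_385m (6.89 ± 0.11) and eHGT_380h (6.23 ± 0.53), each with SD and n = 2, and last eHGT_376h (6.03, 1 mouse). The SD between mice of a vector, pooled over the 10 vectors with 2 mice, was 0.35. Of the 11 gaps between neighbours in this order, 1 exceeded it, the gap of 0.66 between eHGT_385m and eHGT_380h. The other gaps were within this SD. No single gap was tested, so the gap of 0.66 is not read as a difference between vectors. The lower eHGT_380h mouse was the one without an Agt read in its 16 cells named AB-S40304.

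The top of the order rests on few cells. The eHGT_373m mouse had 12 astrocytes, of which 6 had an Agt read, and 25% of its cells held RNA of another class. Over the 7 VISp vectors with 2 mice the means spanned 0.89, and the limma F-test of any difference gave an unadjusted p of 0.357 and an adjusted p = 0.9999. Of 5344 genes, 0.0% were called in that test, and 4.25% (227 genes) had an unadjusted p under 0.05.

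The MB/HB vectors were not told apart. Mice with eHGT_381h had 2697 and 3046 CPM and mice with MGT_E160m 1946 and 2552 CPM. The difference was 0.36 (SE 0.34, limma adjusted p = 0.788), and 0.0% of genes were called. The exact permutation test of 2 mice against 2 cannot go below 0.333, which was its p here.

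Not all MB/HB cells belonged to 1 cluster. Of the 39 astrocytes of 1 eHGT_381h mouse, 6 fell in the cluster that held 78 of the 81 CBX astrocytes. All 6 had reads of Gdf10, a gene of cerebellar Bergmann glia, at a mean of 2938 CPM, and 0 of the other MB/HB astrocytes had one. Gdf10 was also found in VISp, in 102 of the 337 cells of the largest astrocyte cluster, at a mean of 82.0 CPM. Agt in these 6 cells was 99.4 to 690 CPM with a mean of 300 CPM. The other 33 cells of that mouse had a mean of 3133 and a median of 2913 CPM. The 78 CBX cells of the cluster had a mean of 406 CPM. Without these 6 cells, an alternative chosen after seeing the data, MB/HB was higher than VISp by 4.39 (limma adjusted p = 7.45e-15).

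The 5 MB/HB astrocytes without an Agt read came from the eHGT_381h mouse with 30 astrocytes (2 cells) and the MGT_E160m mouse with 36 astrocytes (3 cells). Each had reads of 9 or 10 of the 12 astrocyte markers, and 1 of the 5 held RNA of another class. Their depth was 251623 to 1200730 reads, with a median of 283586, against a median of 416643 in the MB/HB astrocytes with an Agt read. The part of depth in these 5 cells was not tested. In VISp the clusters of astrocytes ranged from 24% to 49.5% of cells with an Agt read. The largest VISp cluster (337 cells) had 38.9%, at a mean of 127 CPM, and the second (215 cells), with the highest mean Fos, an activity-induced gene, had 42.3%, at 141 CPM.

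Agt was rare in other classes. An Agt read was found in 16 of 933 oligodendrocyte-like cells of VISp (1.71%, exact 95% interval 0.983 to 2.77%), with a median of 3.99 CPM in those 16 and a median depth of 442671 reads over the class. In VISp neuron-like cells 4 of 80 had one (5%, interval 1.38 to 12.3%), with a mean of 1.34 CPM. The VISp astrocytes, at 40.1% of cells and a median depth of 431572 reads, were thus at a mean of 128 CPM against about 1 CPM in both. In MB/HB 1 of 10 oligodendrocyte-like and 1 of 15 neuron-like cells had a read, at 88.5 and 1.73 CPM.

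A cluster of 36 cells was left without a name because it held markers of both oligodendrocytes and astrocytes. Of its cells, 8 of 33 in VISp and 3 of 3 in MB/HB had an Agt read. Classes were built by clustering on other genes of the same cells, so these levels are given without a test.

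**Figure D4:**
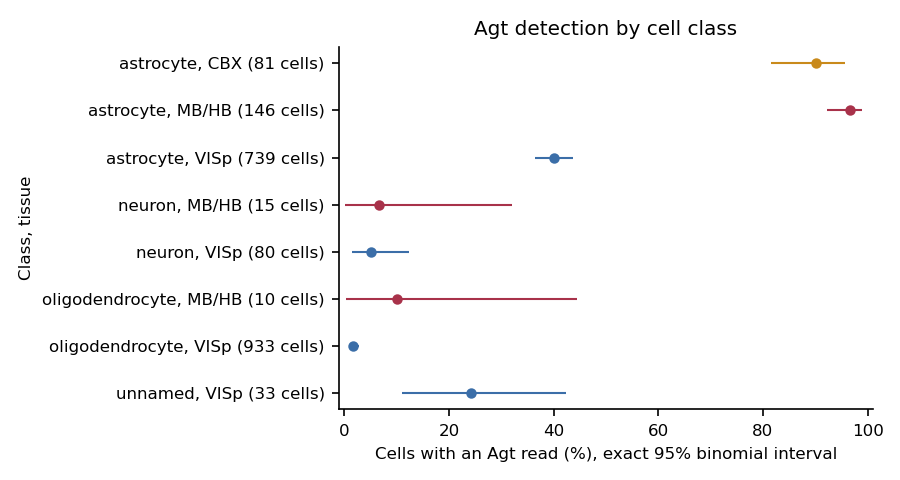
Share of cells with an Agt read (x axis, percent) by cell class and tissue, for sets of at least 10 cells, with exact 95% binomial intervals as bars. VISp oligodendrocytes (1.71%) and neurons (5%) lie below VISp astrocytes (40.1%).

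Among 4758 genes compared from cell to cell in MB/HB, the one that went most closely with Agt was Prnp, which encodes the prion protein. Over 146 cells, with each gene centred on its mouse mean, Pearson's r of Prnp with Agt was 0.50, and it was positive in 4 of 4 mice (0.28 to 0.70). Next came Cst3 (cystatin C, a secreted protease inhibitor, r = 0.44) and Apoe (apolipoprotein E, a lipid carrier, r = 0.40). Nkain4 (0.38), Slc6a11 (a GABA transporter, 0.36), F3 (tissue factor, 0.36), Cox7a2 (a respiratory chain subunit, 0.36) and Gjb6 (connexin 30, 0.35) followed. The cells share libraries, mice and depth, so these r values are a description.

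The size of the relation can be read from each mouse. In cells above their mouse's median Agt, mean Prnp was 1.17 to 1.62 times that of the other cells, with 4377 against 2884 CPM in the eHGT_381h mouse with 30 astrocytes and 3719 against 3185 CPM in the MGT_E160m mouse with 41. The ratio was 1.20 to 1.43 for Apoe, 1.09 to 1.67 for Cst3 and 1.60 to 4.11 for Nkain4. All 4 mice had a ratio above 1 for each of these. For Slc6a11 only 2 of 4 mice did. For F3, Cox7a2 and Gjb6 it was 3 of 4 mice each, with lowest ratios of 0.996, 0.72 and 0.97. These genes were chosen for a high r over the same cells, so the signs in single mice are no separate support.

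Among the lowest r in MB/HB were those of Chd4 (a chromatin remodeller, -0.32), Bcat1 (a branched-chain aminotransferase, -0.31), Mob3b (-0.31) and Celf2 (an RNA-binding protein, -0.30). Of 4758 genes with a read in at least 25% of MB/HB astrocytes, 11 were above 0.3 and 5 below -0.3. The median r over these genes was -0.02. Agt itself had an r of -0.22 with the number of genes detected. With genes detected taken out, r was 0.47 for Prnp, 0.39 for Cst3 and 0.36 for Apoe. Without the 6 cells in the CBX cluster, it was 0.48 for Prnp, 0.38 for Cst3, 0.42 for Apoe and 0.41 for Nkain4. For Slc6a11 it was 0.27, for F3 0.35, for Cox7a2 0.37 and for Gjb6 0.32. Among the genes of low r, Chd4 was at -0.34, Bcat1 at -0.25, Mob3b at -0.22 and Celf2 at -0.29. Over cells with an Agt read only, r was 0.40 for Prnp, 0.48 for Cst3, 0.45 for Apoe and 0.25 for Nkain4. It was then 0.35 for Slc6a11, 0.14 for F3, 0.09 for Cox7a2 and 0.34 for Gjb6.

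In VISp no gene reached an r of this size. Of 5047 genes tested over 739 cells, the highest r was 0.16 (Slc22a17) and the lowest -0.10 (Pip5k1b), and 0 genes were above 0.2. The next highest were Paqr6, Kdelr1 (a receptor that returns proteins to the endoplasmic reticulum), Plpp3 (a lipid phosphatase), Tmem50a, Dag1 (dystroglycan), Slc35f6 and Cd47, from 0.16 to 0.14. The next lowest were Fam221b, Eif3j2, Cox6c and Copa, from -0.10 to -0.09. In sparse counts values of this size are no finding. Prnp had an r of 0.09 in VISp and 0.11 in CBX, and Apoe 0.09 and 0.24, but the difference between tissues was not tested. Over the Agt-positive VISp cells alone r was 0.11 for Slc22a17.

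**Figure D5:**
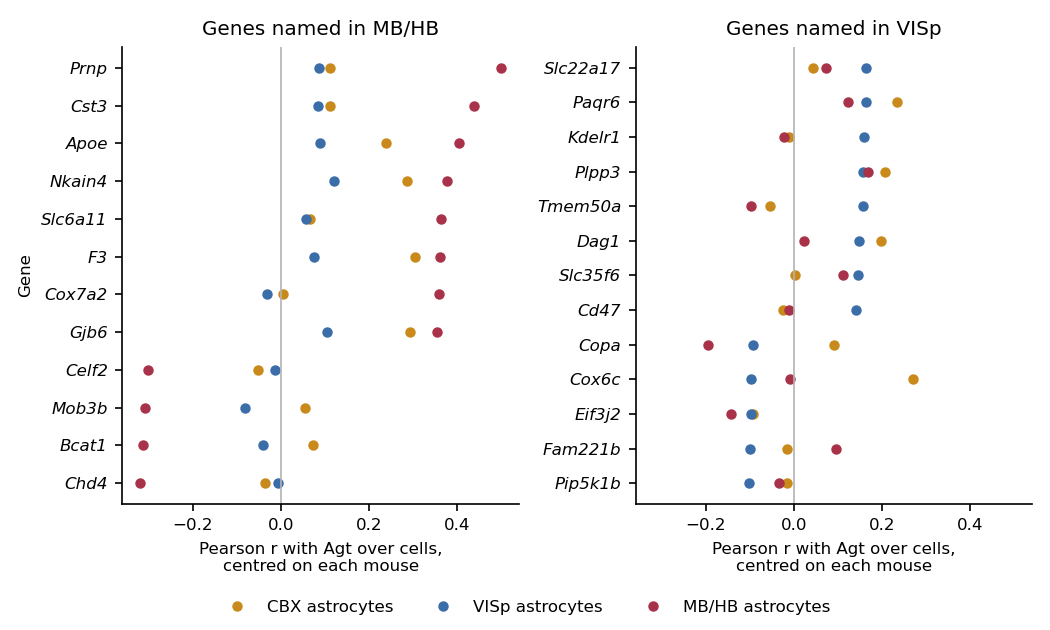
Pearson r of named genes with Agt over single astrocytes (x axis), each gene centred on the mean of its mouse, with points coloured by the tissue of the cells. The left panel has the genes named for a high or low r in MB/HB (Prnp at 0.50 to Chd4 at -0.32), and the right panel those in VISp, all between -0.10 and 0.16 in that tissue.

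Astrocyte markers had a positive median r with Agt in each tissue. Of the 12 markers, 9 had a positive r in VISp (median 0.06, against 0.01 over all genes), 10 in MB/HB (median 0.16, against -0.02) and 12 in CBX (median 0.25, against 0.08). Of 12 genes of the glucocorticoid response, 8 passed the detection limit in each tissue, with median r of 0.00 in VISp, 0.02 in MB/HB and 0.07 in CBX.

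The other genes of the renin-angiotensin system were taken from a list of 20, of which 14 could be tested. Against VISp, MB/HB had 2 called higher and 1 lower, where 8.96% of all genes were called higher and 11.1% lower. CBX had 0 higher and 1 lower than VISp, where 11.9% of genes were called higher and 590 of 5360 lower. MB/HB had 1 higher and 2 lower than CBX, where 8.9% were called higher and 11.4% lower. The median log2 difference of the 14 between MB/HB and VISp was 0.21, against -0.05 over all genes.

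Of the enzymes that make angiotensin I and II, renin, chymase and angiotensin-converting enzyme were barely detected. Ren1 (renin) had a read in 1 of 739 VISp cells and 0 of 81 CBX and 0 of 146 MB/HB cells, and Cma1 (chymase) in 0 of each. Counts of 0 allow a share of up to 0.406% in VISp, 3.70% in CBX and 2.05% in MB/HB. Ace had a read in 0 VISp cells, 1 CBX cell and 2 MB/HB cells. It was called higher in MB/HB than in VISp (limma adjusted p = 0.00933), which rests on those 2 cells in 2 mice. Ctsd (cathepsin D, a lysosomal protease that can also cut angiotensinogen) was widely detected, with a read in 93.6% of VISp, 97.5% of CBX and 93.8% of MB/HB cells. It differed by 0.20 between MB/HB and VISp (limma adjusted p = 0.427).

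Enzymes that trim angiotensin peptides gave the other calls. Enpep (aminopeptidase A, which converts angiotensin II to III) had a read in 5 of 739 VISp cells and 6 of 146 MB/HB cells, the latter spread over 4 mice. It was called higher in MB/HB than in VISp (1.43, SE 0.24, limma adjusted p = 5.42e-05) and than in CBX (1.45, SE 0.38, limma adjusted p = 0.00758). Thop1 (thimet oligopeptidase) had a read in 10.7% of VISp, 32.1% of CBX and 4.11% of MB/HB cells. It was called lower in MB/HB than in VISp (-2.21, SE 0.76, limma adjusted p = 0.0369) and than in CBX (-3.28, SE 1.19, limma adjusted p = 0.0491). Prcp (prolylcarboxypeptidase) was called lower in MB/HB than in CBX (-3.28, SE 1.14, limma adjusted p = 0.0391), and Lnpep (a membrane aminopeptidase that binds angiotensin IV) lower in CBX than in VISp (-1.46, SE 0.50, limma adjusted p = 0.0332).

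Of the receptors, Agtr1a, Agtr1b and Mas1 could be tested, and none of them passed in the 3 comparisons. Agtr2 and Mrgprd were too rare to be tested. Agtr1a was detected in 4.19% of VISp, 4.94% of CBX and 5.48% of MB/HB cells, and Agtr1b in 3.52%, 4.94% and 4.79%. Agtr2 had a read in 0 VISp, 0 CBX and 1 MB/HB cell. Mas1, the receptor of angiotensin (1-7), was detected in 43.2%, 41.98% and 54.1% of cells. Over all astrocytes of a tissue Mas1 had a mean of only 1.93, 1.47 and 2.35 CPM, so these shares describe a low level. Its MB/HB level was 1.71 ± 0.32 (SD, n = 4), against 1.45 ± 0.54 in VISp (SD, n = 19), a difference of 0.26 (SE 0.32, limma adjusted p = 0.625). Agtrap and Atp6ap2, which bind the receptor and renin, had differences of -0.27 (limma adjusted p = 0.664) and 0.25 (limma adjusted p = 0.239) between MB/HB and VISp.

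Over the 25 mice, the tested gene whose level followed Agt most closely was Atp1b2 (a sodium pump subunit, r = 0.94). Next came Car14 (carbonic anhydrase XIV, 0.90), Cd81 (a tetraspanin, 0.90), Irx3 (a transcription factor, 0.89) and Aldh1a1 (a retinaldehyde dehydrogenase, 0.89). Those most opposed were Gnao1 (a G protein subunit, -0.95), Gldc (glycine decarboxylase, -0.94), Pantr1 (-0.92), Lhx2 (a forebrain transcription factor, -0.91) and Ptn (pleiotrophin, -0.91). The mice fall into 3 tissues, and these r values follow the tissue means, so they measure likeness of pattern only. Within the 19 VISp mice the r of these 10 genes ranged from -0.56 (Gnao1) to 0.46 (Cd81).

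The 5 most alike did not follow the same steps. Atp1b2 was at 9.60 ± 0.23 (SD, n = 19) for VISp mice, 9.92 ± 0.04 (SD, n = 2) for CBX mice and 11.53 ± 0.26 (SD, n = 4) for MB/HB mice. Car14 was at 0.87 in VISp and 0.90 in CBX, and at 9.21 in MB/HB. Aldh1a1 rose in both steps as Agt did, from 7.59 to 9.06 and 10.11. It was called higher in CBX than in VISp (1.47, limma adjusted p = 0.000186) and in MB/HB than in CBX (1.05, limma adjusted p = 0.0216).

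Of 16 genes known to differ between astrocytes of brain regions, MB/HB astrocytes had 8 called higher and 7 called lower than VISp, beside 8.96% of all genes higher and 11.1% lower. These included Slc6a9, a glycine transporter, higher by 4.63. The list was chosen with earlier results of these data known, so its counts are no separate support for a difference between regions. The reactive list of 12 genes, which includes acute-phase genes, had 1 called higher (Socs3) and 1 lower (Vim) of 11 tested between MB/HB and VISp. Socs3 had a read in only 2.05% of MB/HB and 0.406% of VISp cells, and Vim in 8.22% and 19.4%. Over MB/HB mice their log2 levels ran from 0 to 4.51 and from 0 to 7.17. The glucocorticoid list had 2 higher (Cdkn1a, a cell cycle inhibitor, by 5.27, and Nr3c2, the mineralocorticoid receptor, by 1.02) and 0 lower of 12. Nr3c1, the glucocorticoid receptor, differed by 0.10 (SE 0.20, limma adjusted p = 0.781). The reactive and glucocorticoid counts are within 2 genes of those shares of all genes.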

How the data were processed

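Single SYFP2-positive cells were sorted into SMARTerv4 buffer, per the labels' protocols. STAR and the mm10 build are named in the submitters' processing notes. The counting tool, annotation and filters are not given in the sources used here. The authors deposited 1 table of 2040 cells by 32245 genes in CPM. Every cell summed to 1000000, and all 9484843 positive values were whole reads within a tolerance of 0.001 reads, from which depth was recovered. Some columns are recorded as another unit only because the unit check works column by column, and they too hold CPM as the authors deposited it.

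The members and gene lists were chosen with earlier results of these data known. Single genes were tested in 5382 columns, the fixed lists plus the most widely detected genes, a choice made after the table was opened. The other 26863 columns entered only sums, depth and genes detected. The columns used held a median of 82.8% of a cell's reads.

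Cells were clustered (2000 variable genes without Agt, 30 principal components, 15 neighbours, Leiden resolution 1, leidenalg 0.10.2) into 13 clusters named by 9 marker lists. This gave 966 astrocyte-like, 943 oligodendrocyte-like, 95 neuron-like and 36 unnamed cells. No doublet caller was run, and cells in which markers of another class were found were left out in an alternative. Each mouse with at least 10 astrocytes gave 1 value per gene, log2(mean CPM + 1). A gene entered limma 3.58.1 (R 4.3.3) where 2 or more mice had a mean of at least 1 CPM, in 1 fit over all tissues with Benjamini-Hochberg adjustment. The fit was tested on simulated data. Fold changes on this scale understate changes of low genes. Named genes were Agt, the listed pathway and regional genes, the 8 highest and 5 lowest r with Agt within VISp and within MB/HB, and the 5 highest and lowest over mice, apart from items not reported here. Correlations over VISp mice used 100000 permutations. Exact tests enumerated all regroupings of mice, and intervals are exact (Clopper-Pearson) at 95%. A count of 0 was read as a limit of 3 counts. Reads without molecular identifiers are not independent molecules. The promoter is from RefSeq (GRCm38.p6).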

Additional observations from a re-analysis of the deposited data

How the results depend on the processing

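The direction of the 3 tissue differences in Agt was the same under all 16 alternatives run for each and when leaving out each mouse. Leaving out a mouse gave 4.25 to 4.47 for MB/HB minus VISp, 1.49 to 1.92 for CBX minus VISp and 2.42 to 2.85 for MB/HB minus CBX, all called by limma. With library names AB-S40304 only, 7.28, 4.29 and 2.99 missed the threshold, with 5 mice in the fit. With the median CPM over cells, MB/HB minus CBX was 2.62 and also missed it. The cause was not tested.

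For the share of cells with a read and the SD over cells, CBX minus VISp missed the threshold without either CBX mouse, at 45.6 to 54.4 percentage points and -1.63 to -0.65, because 1 mouse against 19 cannot give an exact p below 0.05. The small SD difference between MB/HB and CBX ranged from -0.97 to 0.02 when leaving out a mouse and turned to 0.019 without the CBX mouse with 38 astrocytes. Leaving out a mouse gave 56.4 to 59.2 points for MB/HB minus VISp in the share, 3.23 to 12.04 for MB/HB minus CBX, and -1.90 to -1.27 for the SD of MB/HB minus VISp. With log2(CPM + 10) the SD differences from VISp shrank from -1.61 to -0.47 in MB/HB and from -1.14 to -0.43 in CBX. The span of the VISp vector means was 0.52 to 1.41, and the MB/HB vector difference 0.17 to 0.56, and neither was called.

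The r of Prnp was 0.36 to 0.56 when leaving out a mouse, and that of Slc22a17 0.15 to 0.17. Of the 8 highest genes in MB/HB, 4 were shared with Spearman's rho and 4 over cells with an Agt read only, and 3 to 6 when leaving out a mouse, lowest without the MGT_E160m mouse with 36 astrocytes and 5 without the eHGT_381h mouse with 39. In VISp, 0 were shared over cells with an Agt read only, 4 with AB names only, and 6 to 8 when leaving out a mouse.

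Counts over all genes moved more than Agt. Against 1077, 1227 and 1087 calls, AB-S40304 alone gave 48, 96 and 21, AB-S40318 and AB-S40319 gave 650 for CBX minus VISp, the mean of log2 values gave 2666 for CBX minus VISp and 2943 for MB/HB minus CBX, and the median gave 657 for MB/HB minus VISp and 2179 for MB/HB minus CBX. The share of calls that were higher was 43.9% in MB/HB minus CBX and 57.1% after centring on the median gene. In CBX minus VISp it was 51.9%, and 87.6% with the mean of log2 values. No paired analysis was possible because each mouse gave 1 tissue and received 1 vector.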
